A study of Mus musculus with 384 samples.

Results

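Htr3a, Htr3b, Chrna6, Chrm2, Adcyap1r1, Tacr3, Drd1, Drd2 and Drd4 are 9 genes for receptors of serotonin, acetylcholine, neuropeptides and dopamine, 9 of the 32813 genes measured in single cells of mouse retina. The set was chosen by measured values of these same cells, because Htr3a, Adcyap1r1 and Chrna6 differed between groups of cells, so differences of the 9 genes between those groups are given as descriptions, with no test. The label under which they were grouped names serotonin, acetylcholine and peptide receptors, and 3 of the 9 are dopamine receptors. Drd1 is listed under its older symbol, Drd1a.

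Full-length cDNA of sorted cells was sequenced by Smart-seq2, a plate method in which each cell is its own library. The cells came from 4 retinas, named 1la and 1Ra for mouse 1 and 2la and 2Ra for mouse 2, at postnatal day 17, with 96 cells per retina. The labels do not spell out la and Ra. All animals were untreated and carried both a cre knocked into Kcng4, a potassium channel modifier gene, and the cre-dependent YFP reporter Thy1-stop-YFP Line#1. Cells were collected by fluorescence-activated sorting, so every cell below passed that sort and no unsorted retinal cells serve as a comparison. The replicate is the mouse (n = 2). Both retinas of a mouse share the animal, and a retina cannot be told apart from anything else its cells shared in handling.

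Values were present for 383 of the 384 cells, and 321 of them had at least 3000 genes with an expected count of at least 1. These were divided by 3 genes at 20 TPM or more (TPM, a level scaled by transcript length and to the same total in each cell). Exactly 1 of Sox6, Vsx1 and Ddit4l reached that level in 151 Sox6-only, 60 Vsx1-only and 59 Ddit4l-only cells. More than 1 reached it in 18 cells and none in 33, and these are left out of the comparisons of groups. Each retina gave at least 10 cells of each group. Below the threshold, 5, 4 and 3 cells had Sox6, Vsx1 and Ddit4l between 10 and 20 TPM. Above it, 13, 3 and 3 cells had them between 20 and 50 TPM, and 154, 65 and 68 cells at 50 TPM or more. The highest value below it was 18.7 TPM for Sox6, 15.8 for Vsx1 and 16.9 for Ddit4l, and the lowest at or above it 20.8, 31.01 and 28.96 TPM. The median total count per cell was 1067453 in Sox6-only, 1072603 in Vsx1-only and 1091485 in Ddit4l-only cells. Of 12 pan-bipolar and ON bipolar cell markers, 12, 12 and 10 were detected in most cells of the 3 groups, with a summed level per retina of 8240 to 10880, 7901 to 10370 and 4056 to 6126 TPM. Summed levels of 8 rod markers lay between 496 and 3431 TPM per retina and group, with at most 4 of the 8 detected in most cells of a group. Those of 8 Müller glia markers lay between 247 and 2209 TPM, the highest in Vsx1-only cells of retina 2Ra, and those of 7 cone markers between 12.3 and 571 TPM. Ganglion cell markers (8) summed to between 10.8 and 48.1 TPM, with Pou4f2 at a count of 1 or more in no cell of the 3 groups. Amacrine cell markers (8) summed to between 1.28 and 158 TPM, the highest in Ddit4l-only cells of retina 2Ra. Chat, Slc32a1 and C1ql2 were at such a count in no Vsx1-only cell, but all 8 were in some Sox6-only and some Ddit4l-only cells. Rod bipolar cell markers (5) summed to between 8.79 and 44.9 TPM and horizontal cell markers (4) to between 40.5 and 132 TPM. The part of these other cell types' RNA in the results below was not tested beyond leaving out rod-rich cells. No doublet caller was run.

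Bipolar cells carry signals from photoreceptors to the inner retina, where amacrine cells release acetylcholine, dopamine and peptides, and receptors on bipolar cells let these messengers adjust transmission. Htr3a and Htr3b encode subunits of the serotonin-gated cation channel, in which the A subunit can form channels alone and the B subunit needs A. Chrna6 encodes a nicotinic acetylcholine receptor subunit and Chrm2 a muscarinic receptor coupled to inhibitory G proteins. Adcyap1r1 encodes PAC1, the receptor for the peptide PACAP, and Tacr3 the neurokinin B receptor NK3R, a known label of some OFF bipolar cells. The D1 receptor (Drd1) raises cyclic AMP, whereas the D2 and D4 receptors (Drd2, Drd4) lower it.

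RefSeq promoter sequence (build GRCm38.p6, the assembly of mm10) matched 7 of the 9 genes, with none for Htr3a and Chrna6. The Adcyap1r1 window lies inside the RefSeq gene interval and was not searched. The bases before the start site, up to 250 and without any that lie in a GENCODE vM21 exon or in the RefSeq gene interval, are shown for 4 genes: Drd1 and Drd2, a pair of opposed receptors found in different shares of the same cells, Htr3b, the subunit near 0, and Tacr3, found in few cells. They lie at chr13:54055706-54055908 (- strand), chr9:49340153-49340359 (+ strand), chr9:48964991-48965240 (- strand) and chr3:134828757-134829006 (+ strand), in that order. Each runs 5′ to 3′ on the gene's strand, and capitals mark a match to a motif searched.
Drd1: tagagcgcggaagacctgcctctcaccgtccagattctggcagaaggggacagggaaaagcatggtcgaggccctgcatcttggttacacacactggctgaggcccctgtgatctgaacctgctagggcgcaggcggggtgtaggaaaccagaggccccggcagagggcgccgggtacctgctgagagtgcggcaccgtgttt
Drd2: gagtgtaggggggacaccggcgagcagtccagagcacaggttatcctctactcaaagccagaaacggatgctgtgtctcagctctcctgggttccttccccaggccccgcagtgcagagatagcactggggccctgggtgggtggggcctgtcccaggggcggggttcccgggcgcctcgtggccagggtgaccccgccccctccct
Htr3b: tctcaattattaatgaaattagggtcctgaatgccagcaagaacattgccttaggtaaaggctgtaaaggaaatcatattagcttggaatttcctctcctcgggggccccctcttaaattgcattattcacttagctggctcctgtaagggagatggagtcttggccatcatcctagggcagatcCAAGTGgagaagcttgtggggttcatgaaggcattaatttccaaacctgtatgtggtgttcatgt
Tacr3: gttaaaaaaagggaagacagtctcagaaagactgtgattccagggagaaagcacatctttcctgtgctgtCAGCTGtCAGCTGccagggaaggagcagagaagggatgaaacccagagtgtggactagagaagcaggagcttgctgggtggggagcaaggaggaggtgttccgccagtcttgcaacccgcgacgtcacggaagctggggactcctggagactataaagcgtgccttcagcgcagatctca
The motifs, searched on both strands, were ACAAT (SOX core), TAATCC (OTX and CRX core), TAATTA (homeodomain core), CANNTG (E-box) and TGACGTCA (cAMP response element). Of 32851 promoter windows of 250 bases, 27.7%, 6.25%, 4.84%, 66.2% and 1.55% hold them at least once. The Htr3b window held 1 E-box and that of Tacr3 held 2. The Drd1 and Drd2 windows, of 203 and 207 bases, held no match, nor did that of Drd4. At 203 bases the shares of all windows are 24%, 5.29%, 4.24%, 59.5% and 0.855%. The Chrm2 window, cut to 157 bases and not shown, held 1 SOX core and 1 OTX and CRX core, found in 19.3% and 4.12% of windows of that length. No matches overlapped. GC content was 62.6% in the Drd1 and 67.6% in the Drd2 window, with 11 and 9 CpG dinucleotides, against a median of 51.7% and 4 over all windows of the same length. The Htr3b window had 44% GC and 1 CpG, and that of Tacr3 54.4% and 7, against medians of 52.4% and 6.

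Htr3a, the serotonin receptor subunit, was the highest of the 9 genes in Sox6-only cells and close to absent from Vsx1-only cells. In Sox6-only cells its mean level in retinas 1la, 1Ra, 2la and 2Ra was 339, 307, 295 and 449 TPM. In Ddit4l-only cells it was 139, 131, 60.01 and 77.6 TPM in the same order, and in Vsx1-only cells 0.478, 0.0528, 0.314 and 6.66 TPM. All 4 retinas thus ranked the groups in the same order, and no retina of one group overlapped another group's. The log2 fold change from counts summed per mouse was 7.47 ± 1.87 (SE, n = 2 mice) for Sox6-only minus Vsx1-only, 1.71 ± 1.43 for Sox6-only minus Ddit4l-only and -5.76 ± 1.83 for Vsx1-only minus Ddit4l-only cells. Without retina 2Ra the first and last became 10.73 and -8.84, and without 72 rod-rich cells, defined by summed rod markers of at least 1000 TPM, 10.81 and -9.02.

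The intermediate level in Ddit4l-only cells came from a minority of them. Htr3a was at 20 TPM or more in 122 of 151 Sox6-only cells (80.8%, 95% Clopper-Pearson interval 73.6% to 86.7%) and in 19 of 59 Ddit4l-only cells (32.2%, 20.6% to 45.6%). In 17 of those 19 it was at 100 TPM or more, while 29 of the 59 were at 0 and the median was 0.540 TPM, against 253 TPM in Sox6-only cells. Among Vsx1-only cells 1 of 60 reached 20 TPM, at 77.1 TPM in retina 2Ra, and this cell gave 83.1% of the group's summed TPM. A count of at least 1 was more frequent, in 15 of 60 Vsx1-only cells (25%, 14.7% to 37.9%), but only 2 of them reached 1 TPM. The mice differed in this, with 3 of 34 cells (8.82%) in mouse 1 and 12 of 26 (46.2%) in mouse 2, both outside that interval. With each cell thinned to 400000 counts, the share with a count fell to 10.2% of 59 Vsx1-only cells, with 1 shallower cell left out, and was 86.8% of 151 Sox6-only and 44.1% of 59 Ddit4l-only cells. Whether such low counts are RNA of other cells was not tested. These intervals cover counting error over cells only and leave out the spread between mice.

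Htr3b, the partner subunit, was near 0 throughout. It lies on chromosome 9 at 48935008 to 48964990, 23855 bases from Htr3a (48899213 to 48911152). Its highest value in any of the 321 cells was 1.65 TPM, and its mean was 0.0214 TPM in Sox6-only cells, in which Htr3a averaged 346 TPM over the mice. A count of at least 1 was found in 4 of 151 Sox6-only, 1 of 60 Vsx1-only and 1 of 59 Ddit4l-only cells. Htr3b had too few counts for the models across genes. The 12 other serotonin receptor genes listed all stayed under 2 TPM on average in each group.

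**Figure D1:**
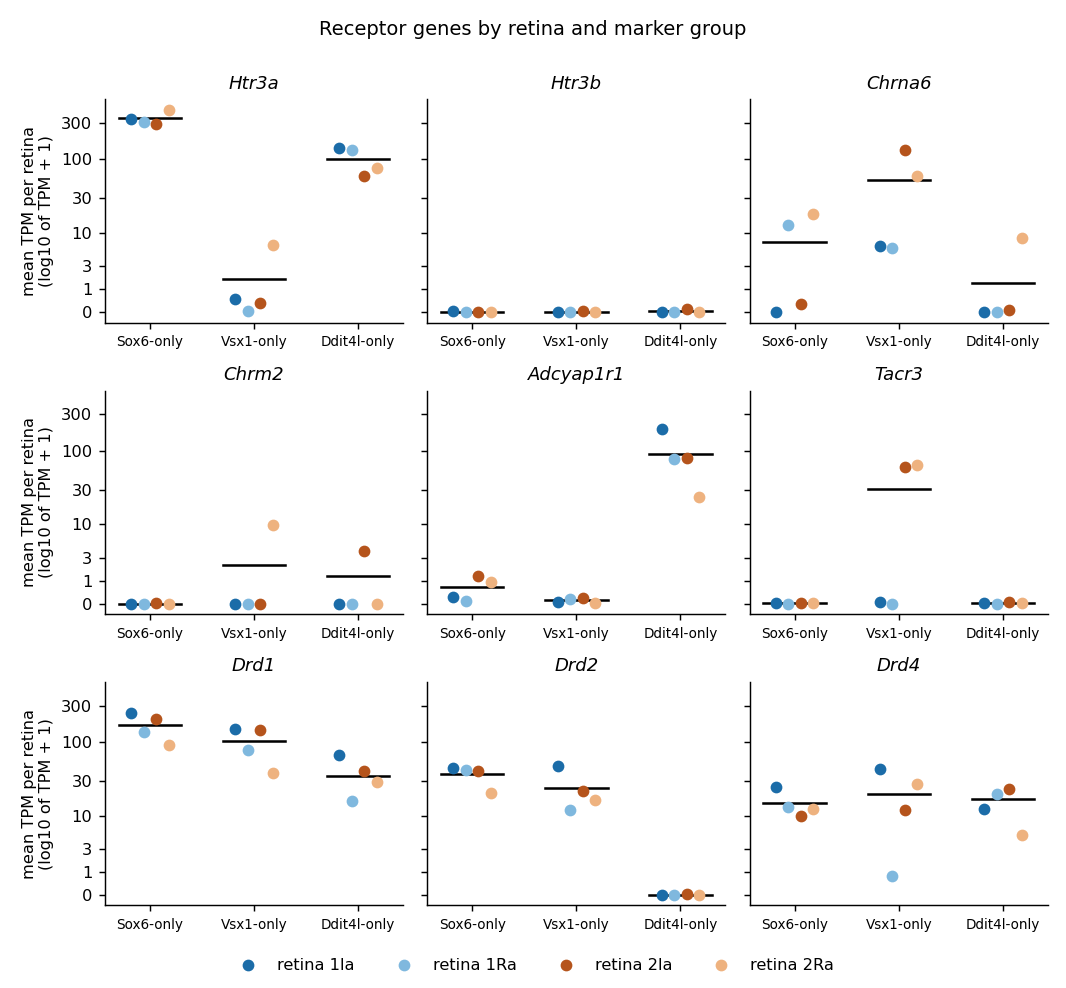
Mean TPM of the 9 receptor genes (vertical axis, log10 of TPM + 1) in Sox6-only, Vsx1-only and Ddit4l-only cells; points are the 4 retinas and lines the mean of 2 mice. Htr3a is lowest in Vsx1-only, Adcyap1r1 highest in Ddit4l-only and Drd2 close to 0 in Ddit4l-only cells, whereas Chrm2, Tacr3 and the Vsx1-only level of Chrna6 rest mostly on retinas of mouse 2.

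Adcyap1r1, the PACAP receptor gene, was high in Ddit4l-only cells and nearly absent elsewhere. Its mean was 195, 77.7, 80.2 and 24.3 TPM in Ddit4l-only cells of retinas 1la, 1Ra, 2la and 2Ra. The same retinas gave 0.228, 0.0877, 1.32 and 0.924 TPM in Sox6-only cells and 0.0537, 0.147, 0.199 and 0.0267 TPM in Vsx1-only cells. The lowest Ddit4l-only retina, 2Ra, was above all retinas of the other groups, although the 4 Ddit4l-only values themselves differed by several fold. In Ddit4l-only cells the means of Htr3a (99.9 ± 48.1 TPM, SD, n = 2 mice) and Adcyap1r1 (89.9 ± 40.01 TPM) differed by less than their spread over mice. The log2 fold change of Adcyap1r1 was -6.56 ± 1.35 (SE, n = 2 mice) for Sox6-only minus Ddit4l-only and -8.77 ± 1.47 for Vsx1-only minus Ddit4l-only cells.

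Within the Ddit4l-only cells Adcyap1r1 was uneven too. It reached 20 TPM in 27 of 59 cells (45.8%, 32.7% to 59.2%), was at 0 in 15, and had a median of 8.61 and a highest value of 558 TPM. Only 2 of 151 Sox6-only and 0 of 60 Vsx1-only cells reached 20 TPM. The cells with Adcyap1r1 and those with Htr3a were only in part the same: 8 of the 59 had both at 20 TPM or more, 19 had Adcyap1r1 alone, 11 Htr3a alone and 21 neither. Spearman's rho between the genes over these 59 cells was 0.00879, a description only, since both genes of a cell come from the same library and depth. The genes of the peptides themselves, Adcyap1 (PACAP) and Vip, were listed at 0 in all 3 groups.

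**Figure D2:**
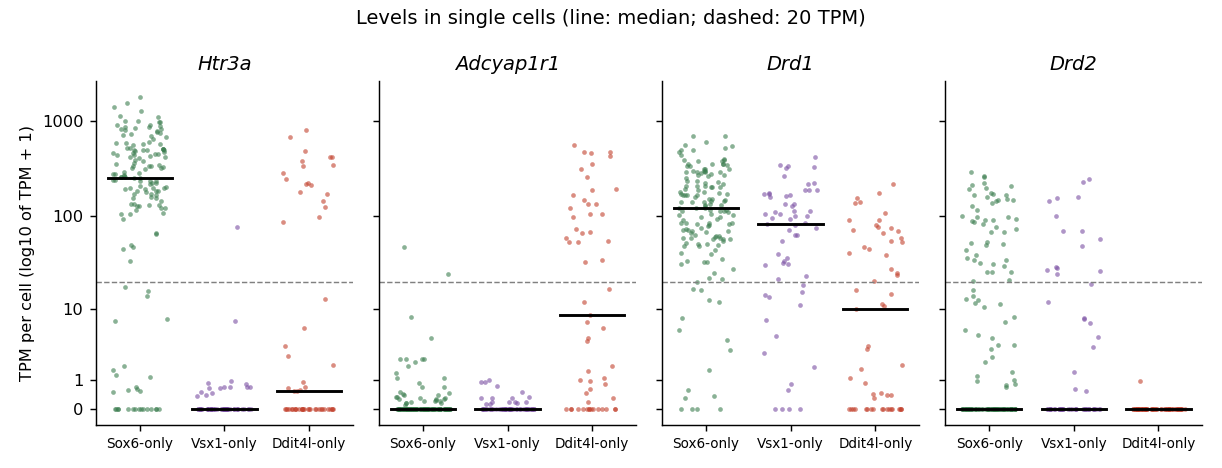
Level of Htr3a, Adcyap1r1, Drd1 and Drd2 in each cell (vertical axis, log10 of TPM + 1) of the 3 groups, with the group's median as a line and 20 TPM dashed. Ddit4l-only cells spread from 0 to well above 20 TPM for both Htr3a (19 of 59 at 20 TPM or more) and Adcyap1r1 (27 of 59), and none reaches 20 TPM for Drd2.

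Vipr2, a receptor for VIP that also binds PACAP, was expressed in all 3 groups at a higher level than Adcyap1r1 in Ddit4l-only cells, with 414 ± 20.8 TPM (SD, n = 2 mice) in Sox6-only, 198 ± 28.8 in Vsx1-only and 366 ± 54.7 TPM in Ddit4l-only cells. It was not in the chosen set. Its log2 fold change of 1.04 ± 0.19 (SE) for Sox6-only minus Vsx1-only did not pass edgeR's quasi-likelihood test in sums per mouse (adjusted p = 0.345), nor did -1.09 ± 0.19 for Vsx1-only minus Ddit4l-only (adjusted p = 0.197). Counts summed per retina, which treat the retinas of 1 mouse as separate, gave adjusted p = 0.0197 and 0.0140.

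Drd1, the D1 dopamine receptor gene, was the most widely expressed of the 9. Its mean was 242, 136, 198 and 92.2 TPM in Sox6-only cells of retinas 1la, 1Ra, 2la and 2Ra. In Vsx1-only cells it was 150, 78.5, 142 and 39.1 TPM, and in Ddit4l-only cells 66.9, 16.2, 40.7 and 29.2 TPM. The Sox6-only retinas were all above the Ddit4l-only retinas, the Vsx1-only retinas overlapped both, and in each retina the order of the 3 groups was the same. The log2 fold change was 0.72 ± 0.18 (SE, n = 2 mice) for Sox6-only minus Vsx1-only, 2.11 ± 0.19 for Sox6-only minus Ddit4l-only and 1.4 ± 0.18 for Vsx1-only minus Ddit4l-only cells. At 20 TPM or more it was found in 135 of 151 (89.4%, 83.4% to 93.8%), 45 of 60 (75%, 62.1% to 85.3%) and 25 of 59 cells (42.4%, 29.6% to 55.9%) in that order of groups.

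Drd2, of the opposite effect on cyclic AMP, was present in Sox6-only and Vsx1-only cells and nearly absent from Ddit4l-only cells. Retinas 1la, 1Ra, 2la and 2Ra gave 44.8, 42.5, 41.8 and 20.5 TPM in Sox6-only cells and 47.4, 12.2, 21.8 and 16.5 TPM in Vsx1-only cells. In Ddit4l-only cells retina 2la was at 0.0490 TPM and the other 3 at 0. All 59 Ddit4l-only cells together held 1 count of Drd2 in 63143138, against 5935 in 160342242 for Sox6-only and 1637 in 62759871 for Vsx1-only cells. The ratio of Sox6-only to Ddit4l-only was 2337 (95% counting interval 419.5 to 92320), and that of Vsx1-only to Ddit4l-only 1647 (295.6 to 65050). These intervals cover only the counting error of reads, which are amplified copies and not independent molecules, and leave out the spread between cells and mice. Within the expressing groups Drd2 was found in fewer cells than Drd1, with 50 of 151 Sox6-only (33.1%, 25.7% to 41.2%) and 15 of 60 Vsx1-only cells (25%, 14.7% to 37.9%) at 20 TPM or more. Of the 50 Sox6-only cells 46 also had Drd1 at that level, while 135 of all 151 did.

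Drd4, also coupled to inhibitory G proteins, showed no separation of the groups. It averaged 15.2 ± 5.80 TPM (SD, n = 2 mice) in Sox6-only, 20.1 ± 1.46 in Vsx1-only and 17.4 ± 0.0801 in Ddit4l-only cells, and its 4 retinas ranged from 9.98 to 24.7, from 0.791 to 44.1 and from 5.22 to 23.3 TPM. It was at 20 TPM or more in 22 of 151, 7 of 60 and 9 of 59 cells. The other dopamine receptors, Drd3 and Drd5, were listed at 0 in all 3 groups. Its log2 fold change turned from 0.67 to -1.64 for Vsx1-only minus Ddit4l-only and from -0.66 to 2.82 for Sox6-only minus Vsx1-only without the rod-rich cells, and to -1.36 and 0.97 without retina 1la.

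**Figure D3:**
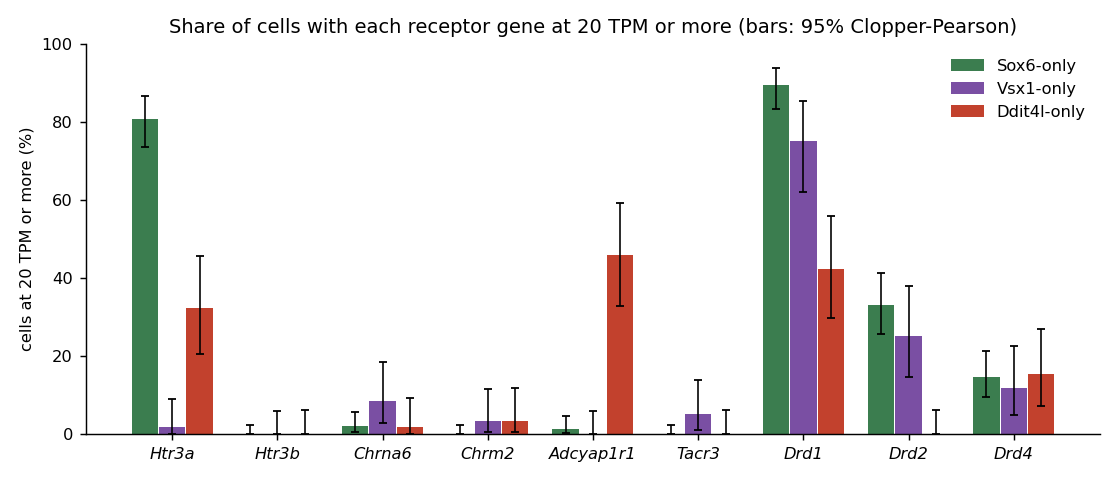
Share of cells (vertical axis, percent) with each receptor gene at 20 TPM or more in Sox6-only, Vsx1-only and Ddit4l-only cells, with 95% Clopper-Pearson intervals as thin bars. Drd1 is found in the largest share of each group except for Adcyap1r1 in Ddit4l-only cells (45.8% against 42.4%), and Htr3b reaches 20 TPM in none of them.

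In the groups where Chrna6, Chrm2 and Tacr3 averaged 1 TPM or more, a few cells held nearly all of their signal. The same was seen for Htr3a in Vsx1-only cells, where the 3 highest cells gave 91.9% of the summed TPM. Chrna6, the nicotinic subunit, had means of 6.31, 6.002, 132 and 59.98 TPM in Vsx1-only cells of retinas 1la, 1Ra, 2la and 2Ra. It had 0, 12.8, 0.306 and 18.2 TPM in Sox6-only cells and 0, 0, 0.0900 and 8.44 TPM in Ddit4l-only cells. The highest values were those of mouse 2 in Vsx1-only cells, and the retinas of the groups overlapped. Only 5 of 60 Vsx1-only cells reached 20 TPM (8.33%, 2.76% to 18.4%), with 3 of 151 Sox6-only and 1 of 59 Ddit4l-only cells, and the 3 highest Vsx1-only cells gave 92.3% of that group's summed TPM. The log2 fold change of -1.29 ± 1.47 (SE, n = 2 mice) for Sox6-only minus Vsx1-only was -0.18 without retina 1la, -6.08 without 1Ra and -3.27 without 2Ra.

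Tacr3 was more uneven still. Its means in Vsx1-only cells were 0.0413, 0, 59.9 and 64.5 TPM in the order above. Of their sum 99.9% came from 3 cells of mouse 2, and no Sox6-only or Ddit4l-only cell exceeded 1 TPM. Chrm2, the muscarinic receptor gene, was at 20 TPM or more in 2 Vsx1-only cells of retina 2Ra and 2 Ddit4l-only cells of retina 2la, and in no Sox6-only cell. These retinas averaged 9.70 and 3.96 TPM, and all other Vsx1-only and Ddit4l-only retinas had 0 TPM. Too few Tacr3 counts were present for the fit of the marker groups.

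Over all 321 cells, Chrna6 was at 20 TPM or more in 17 cells (4 of 150 in mouse 1 and 13 of 171 in mouse 2), Tacr3 in 9 (1 and 8) and Chrm2 in 9 (1 and 8). These cells overlapped: 5 had both Chrna6 and Tacr3, 4 both Chrna6 and Chrm2, and the same 4 all 3 genes. The 4 came from mouse 2, 1 of them Vsx1-only, 1 with no marker and 2 with several markers. Cells outside the 3 groups therefore held much of the signal, with 4 of the 9 Tacr3 cells among those with no marker and 2 among those with several.

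Genes for other nicotinic subunits and markers of ON bipolar and amacrine cells were looked up in these cells after their values were seen. A level of 20 TPM or more of Chrnb3, whose product assembles with that of Chrna6, was found in 6 of the 9 Tacr3 cells and 6 of the 17 Chrna6 cells, and in 11 of all 321 (3.43%). Chrna4 was at that level in 8 of the 9 and 7 of the 17, and in 43 of 321 (13.4%). Chrnb2 was at that level in 3 of the 9 and 2 of the 17, and in 49 of 321 (15.3%). The ON bipolar glutamate receptor gene Grm6 was under 20 TPM in 6 of the 9 Tacr3 cells and 5 of the 17 Chrna6 cells, and at or above it in 247 of 321 (76.95%). Its mean in Ddit4l-only cells was 10.1 ± 11.7 TPM (SD, n = 2 mice), against 751 ± 72.6 in Sox6-only and 586 ± 124 in Vsx1-only cells. Trpm1, the channel of the ON bipolar cascade, reached 20 TPM in 6 of the 9 and 15 of the 17, and in 304 of 321 (94.7%). Gad1, an amacrine cell gene, reached 20 TPM in 1 cell of the 9 and 1 of the 17, and in 10 of 321 (3.1%). The counts are of single cells, 8 of the 9 Tacr3 cells from 1 animal, and no test was made.

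**Figure D4:**
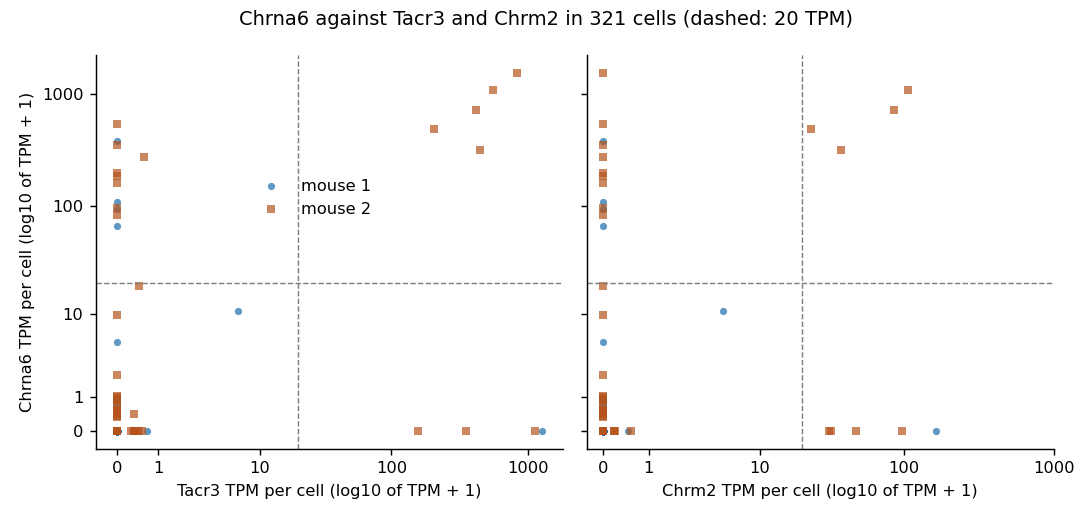
Chrna6 (vertical axes) against Tacr3 (left) and Chrm2 (right) in 321 cells, log10 of TPM + 1, by mouse, with 20 TPM dashed. The 5 cells above both lines on the left and the 4 on the right are all of mouse 2.

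Single cells of the 3 groups held up to 4 of the 9 genes at 20 TPM or more. Among the 18 cells with several markers, 1 held 5 and 1 held 6. Of 151 Sox6-only cells 2 had none, 21 had 1, 75 had 2, 49 had 3 and 4 had 4. Of 60 Vsx1-only cells 6 had none, 34 had 1, 16 had 2 and 4 had 3, and of 59 Ddit4l-only cells 9 had none, 24 had 1, 19 had 2 and 7 had 3.

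Of the 9 genes, 7 passed the filter on low counts in the fit of the marker groups, and Htr3b and Tacr3 did not. With edgeR's quasi-likelihood test on 6 sums (3 groups by 2 mice, the mouse as a block), calling genes with an adjusted p under 0.05 whose log2 fold change was 1 or more in size, none of the 7 was called in any of the 3 comparisons. Among all 16646 genes tested, 0% were called between Sox6-only and Vsx1-only, 0% between Sox6-only and Ddit4l-only and 0.0421% (7 genes) between Vsx1-only and Ddit4l-only cells. At an unadjusted p under 0.05 there were 1429, 1342 and 2141 genes, and DESeq2 called 853, 762 and 1615 (5.12%, 4.58% and 9.70%). Of the members DESeq2 called 1, 4 and 5 in these comparisons. With sums per retina, 6 of the 9 were tested. Htr3a was called between Sox6-only and Vsx1-only cells, where 0.806% of all genes were, Drd1 and Drd2 between Sox6-only and Ddit4l-only (0.551%), and Htr3a, Adcyap1r1 and Drd2 between Vsx1-only and Ddit4l-only (2.3%). The CPM of the 4 retinas did not overlap for 1, 4 and 3 members in these comparisons, and for 7.49%, 6.58% and 7.53% of all genes. Since the members were chosen for such differences, nothing is read from these counts.

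The contrast of Ra with la retinas was not used in choosing the genes. It compared 2 Ra with 2 la retinas in sums over the 270 cells of the 3 groups. Drd1 was at 404 and 325 CPM (counts scaled to library size by TMM, not by gene length) in retinas 1la and 2la and at 198 and 175 CPM in 1Ra and 2Ra. Both Ra values lay below both la values. Ra was also below la in each mouse within each of the 3 groups, as it was for 4.20% of all genes tested, though these 6 pairs come from only 4 retinas of 2 mice and are not independent. The log2 fold change was -0.97 ± 0.20 (SE, n = 2 retinas per side), with an unadjusted p of 0.00587 from edgeR's quasi-likelihood test fitted across 17319 genes and an adjusted p of 0.402, which misses the threshold. DESeq2 gave -0.94 with an adjusted p of 0.00606, and the other edgeR settings adjusted p-values of 0.418 to 0.9996. In Sox6-only, Vsx1-only and Ddit4l-only cells alone the change was -0.79 ± 0.26, -1.28 ± 0.39 and -1.24 ± 0.63.

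Depth and mitochondrial share moved with the side. The median total count per cell was 1286600 and 1190911 in 1la and 2la against 748007 and 1046909 in 1Ra and 2Ra, and the median mitochondrial share 2.05% and 2.14% against 4.15% and 4.86%. Without mitochondrial genes the change of Drd1 was -0.95 ± 0.20. The share of cells with a Drd1 count was 96.6% and 95% in 1la and 2la and 76.1% and 93.8% in 1Ra and 2Ra, and after thinning to 400000 counts 96.6% and 91.3% against 76.1% and 82.8%. The part of depth in the difference was otherwise not tested.

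**Figure D5:**
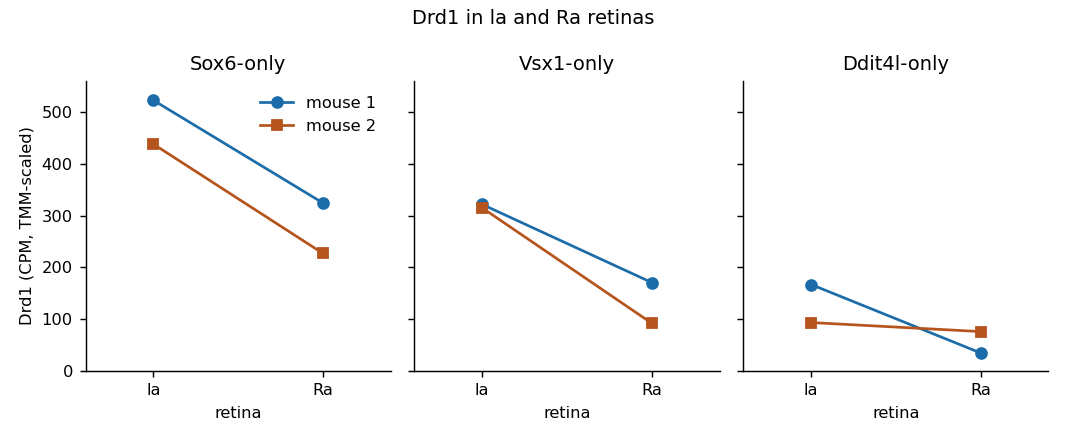
Drd1 (vertical axis, TMM-scaled CPM of summed counts) in la and Ra retinas of each mouse, for Sox6-only, Vsx1-only and Ddit4l-only cells. Each of the 6 lines falls from la to Ra, by the least in Ddit4l-only cells of mouse 2 (93.2 to 75.8 CPM).

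No member was called between Ra and la retinas, where 0% of the 17319 genes were called by edgeR, 1493 had an unadjusted p under 0.05 and DESeq2 called 466. Of the 8 members tested, only Drd1 had an unadjusted p under 0.05. Drd2 had a log2 fold change of -0.74 ± 0.37 (adjusted p = 0.654), from 37.9 and 26.5 CPM in the la to 21.3 and 17.1 CPM in the Ra retinas. Adcyap1r1 had -0.88 ± 0.48 (adjusted p = 0.679) and Htr3a 0.32 ± 0.33 (adjusted p = 0.832). The Ra and la values did not overlap for Drd1, Drd2 and Adcyap1r1, as for 42.2% of all genes. Drd4, Chrna6, Chrm2 and Tacr3 had overlapping values, and for the last 3 a few cells set the sums. The sign of the Htr3a change turned to -0.13 without retina 2Ra.

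Further receptors, ligand genes, chaperones and signalling genes, 130 in 10 lists drawn up with earlier results of these data known, were examined beside the 9. Of 127 found, 65 passed the filter and 0 were called between any marker groups by edgeR, while 14, 8 and 16 had an unadjusted p under 0.05 and DESeq2 called 10, 6 and 14 in the order Sox6-only to Vsx1-only, Sox6-only to Ddit4l-only and Vsx1-only to Ddit4l-only. The unadjusted counts are 21.5%, 12.3% and 24.6% of the list genes tested, beside 8.59%, 8.06% and 12.9% of all genes. The DESeq2 calls are 15.4%, 9.23% and 21.5% of them, beside 5.12%, 4.58% and 9.70% of all genes. Their median log2 fold changes were 0.19, 0.08 and 0.02, beside 0.05, 0.08 and 0.01 over all genes. In sums per retina 2, 1 and 5 of 50 tested were called, beside 0.806%, 0.551% and 2.3% of all genes. Chrna7 and Vipr2 were called higher in Sox6-only than Vsx1-only cells and Adcy2 higher in Sox6-only than Ddit4l-only. Between Vsx1-only and Ddit4l-only cells Npy1r, Adcy2 and Adra2c were called higher in Vsx1-only, and Chrna7 and Vipr2 higher in Ddit4l-only. Between Ra and la retinas 0 of 69 were called by edgeR, and DESeq2 called 3 (4.35%, beside 2.69% of all genes). An unadjusted p under 0.05 was found for 7 (10.1%, beside 8.62% of all genes).

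Chrna7, Adra2c, Vipr2, Npy1r and Adcy2 were called in sums per retina and not in sums per mouse with the mouse as a block. Of these, Chrna7 and Adra2c stayed under 20 TPM on average in each group and are named with their values in view. Adra2c, an adrenergic receptor gene, averaged 4.31 ± 0.744 TPM (SD, n = 2 mice) in Vsx1-only, 0.0206 ± 0.0292 in Sox6-only and 0.00633 ± 0.00896 TPM in Ddit4l-only cells. Chrna7, the subunit of the homomeric nicotinic receptor, was at 0 in all 4 Vsx1-only retinas, with 12.1 ± 1.92 TPM (SD, n = 2 mice) in Sox6-only and 10.3 ± 1.92 TPM in Ddit4l-only cells. Chrna4 averaged 28.3 ± 16.2, 24 ± 33.8 and 11.4 ± 16.04 TPM in Sox6-only, Vsx1-only and Ddit4l-only cells, an SD above the mean in the last 2. Chrm3, the muscarinic receptor coupled to Gq, averaged 26.7 ± 24.2 TPM in Vsx1-only, 2.06 ± 2.30 in Sox6-only and 0 in Ddit4l-only cells. Npy1r, a neuropeptide Y receptor gene, had 27.3 ± 1.98 TPM in Vsx1-only, 1.83 ± 1.66 in Sox6-only and 0.321 ± 0.0343 TPM in Ddit4l-only cells. Hrh3, the presynaptic histamine receptor, had 31.7 ± 1.76, 25.4 ± 28.9 and 1.59 ± 2.16 TPM in the order first given. None of these passed edgeR's test in sums per mouse.

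Among genes for receptor assembly and signalling, those with at least 20 TPM on average in a group are given. Ric3, a nicotinic receptor chaperone, averaged 103 ± 5.96, 86.2 ± 9.59 and 101 ± 26.5 TPM (SD, n = 2 mice) in Sox6-only, Vsx1-only and Ddit4l-only cells, and Tmem35, another, 80.8 ± 0.903, 185 ± 86.6 and 141 ± 57.9 TPM. Of the Ly6 proteins that modify nicotinic receptors, Lynx1 had 37.1 ± 17.6, 17.6 ± 15.2 and 18.2 ± 8.06 TPM and Ly6h 45.4 ± 4.81, 9.13 ± 1.48 and 41.4 ± 2.20 TPM. Ache, which breaks down acetylcholine, had 39.7 ± 8.23, 27.7 ± 8.99 and 51.1 ± 20.6 TPM. Gnao1, the G protein alpha subunit of the ON bipolar cascade, had 640 ± 133, 511 ± 44.6 and 466 ± 72.2 TPM, the highest among the G protein genes listed. Gnas, through which D1 receptors and PAC1 raise cyclic AMP, had 142 ± 20.1, 126 ± 34.4 and 136 ± 43.3 TPM, and Gnai3, Gnaq and Gna11 lay between 12.95 and 45.9 TPM. Adcy2, an adenylyl cyclase, had 51.97 ± 9.69, 71.1 ± 20.9 and 0.153 ± 0.203 TPM.

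The genes with the most similar profile to Htr3a over the 12 sums (3 groups by 4 retinas) were named by Pearson's r of log2(CPM + 1) among 7118 genes with a mean of at least 20 CPM. They were Hpca (r = 0.967), a calcium sensor, Kcnh6 (0.966), a potassium channel, Nfix (0.961), a transcription factor, Thrsp (0.953) and Ly6h (0.951). Hpca averaged 331, 3.72 and 114 CPM in Sox6-only, Vsx1-only and Ddit4l-only cells. For Adcyap1r1 they were Arhgap26 (0.970), RP24-225I21.1 (0.969), Gm26662 (0.966), Ddit4l itself (0.961) and Nsg2 (0.948), of which Arhgap26 averaged 108, 72.3 and 507 CPM and Nsg2 3.04, 2.14 and 80.5 CPM. For Chrna6 they were Ntng1 (0.902), Agpat4 (0.875), Polr3gl (0.872), 2010107E04Rik (0.866) and Cpe (0.853), and Ntng1 averaged 4.38, 58.03 and 0.401 CPM. The 12 sums share 4 retinas and differ mainly by group, so any gene with the same group difference scores high.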

How the data were processed

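Per the submitters' processing notes, RSEM 1.2.28, TopHat2 2.0.10 and the mm10 assembly were used; the annotation is not given in the sources used here. The authors deposited RSEM expected counts, not normalised, and TPM for 32813 genes in 383 cells; the remaining cell was not analysed here. The 9 members, the gene lists and the tests were chosen with earlier results of these data known. TPM were used for levels. Expected counts were rounded, summed per mouse and marker group and tested with edgeR 4.0.16 (R 4.3.3; filterByExpr, TMM, quasi-likelihood, mouse as a block, 2 residual degrees of freedom), with p-values adjusted over all genes by the Benjamini-Hochberg method. The sides, Ra and la, were tested on 4 retina sums with no block. Each SE of a log2 fold change is its size divided by the square root of the quasi-likelihood F statistic. Such an SE draws on spread shared across genes and is not estimated from the replicates of that gene alone. Alternatives were sums per retina, DESeq2 1.42.0, other filters and thresholds, and leaving out retinas or rod-rich cells (8 rod markers summing to 1000 TPM or more). The fits were run on simulated counts with known changes, as a check of the sign of large changes only. Those counts held no mouse or retina effect and changed only genes of higher level, so they cannot speak for sparse genes. Genes named beyond the 9 were list genes called with sums per mouse or with at least 20 TPM on average in a group, and the 5 most similar genes of Htr3a, Adcyap1r1 and Chrna6. Chrna7, Adra2c, Drd3, Drd5, Adcyap1, Vip, the other genes of Tacr3 and Chrna6 cells and cells outside the groups were chosen after their values were seen. Replicate numbers within a retina only name cells. P-values between marker groups, where mouse or retina was a block, measure the spread left once that block is taken out. Those between sides, with no block, measure the spread between retinas of the same side. Both draw on spread shared across genes and rest on only 2 mice or 4 retinas.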

Additional observations from a re-analysis of the deposited data

Results flagged for a closer look

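In 18 sets of 4 retina means (members with at least 1 TPM on average in a group), 5 held a retina far from the other 3 by Dixon's criterion. Its nominal rate of about 1 in 20 sets holds for 4 independent, normally distributed values. Many of these means were 0 or set by few cells, and the retinas are pairs from 2 mice. The count of 5 is therefore not compared with that rate. All 5 were retinas of mouse 2. Htr3a in Vsx1-only cells of retina 2Ra averaged 6.66 TPM, against 0.478 or less in the others, 1 cell carrying most of it. Chrna6 in Ddit4l-only cells of 2Ra averaged 8.44 TPM, against 0.0900 or less. Chrm2 in Vsx1-only cells of 2Ra averaged 9.70 TPM and in Ddit4l-only cells of 2la 3.96 TPM, with 0 in the other retinas. Drd2 in Sox6-only cells of 2Ra averaged 20.5 TPM, against 41.8 to 44.8 TPM. No explanation was tested.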

How the results depend on the processing

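The counts of called genes depended on the settings. Between Sox6-only and Vsx1-only cells they were 16 with no replicate block, 117 in sums per retina, 853 with DESeq2, 3 with no filter on low counts and 1 at a marker threshold of 50 TPM. Between Sox6-only and Ddit4l-only cells they were 2 with no replicate block, 80 in sums per retina and 762 with DESeq2. Between Vsx1-only and Ddit4l-only cells they were 62 with no replicate block, 333 in sums per retina, 1615 with DESeq2, 4 at 50 TPM, 4 with at least 5000 genes per cell, 0 without rod-rich cells, and 0 (without 1la or 1Ra) to 11 (without 2la) when a retina was left out, with 4 without 2Ra. Leaving out a retina gave 0 to 0 in the other comparisons. Between Ra and la retinas DESeq2 called 466 genes, and the mouse as a replicate block called 0, with an adjusted p of 0.579 for Drd1. The pairing of retinas by mouse comes from the labels. The cause of these differences was not tested. Of 261 alternative log2 fold changes of members between marker groups, 10 changed sign, 9 of them of Drd4 and 1 of Chrm2 (Vsx1-only minus Ddit4l-only, to -0.58 at a marker threshold of 10 TPM), and none of Htr3a, Adcyap1r1, Chrna6, Drd1 or Drd2. An unchanged sign does not mean a steady size. Besides the Chrm2 value, 72 of the 261 moved by at least the SD of the 2 mice's own changes, and 188 moved by less. Chrna6 for Sox6-only minus Vsx1-only ran from -6.08 to -0.18 when a retina was left out. Of the shares of cells under other settings, 38 lay outside the main interval and 70 inside. Between Ra and la retinas 9 of 86 changed sign: Chrm2 to -8.97 without 2Ra, 3 each of Chrna6 and Tacr3, and 1 each of Htr3a and Drd4, with none of Drd1, Drd2 or Adcyap1r1. The 5000-gene counts, the side comparison within Vsx1-only and within Ddit4l-only cells, without rod-rich cells and without mitochondrial genes, and DESeq2 values of members were added after the data were seen. With 2 mice, and 10 to 46 cells per retina and group, differences of genes carried by a few cells were not resolvable.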
